A study of Mus musculus with 32 samples.

Results

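The hyaluronan genes followed here were 9 of the 41388 genes counted: the synthases Has1, Has2 and Has3, the hyaluronidases Hyal1 and Hyal2, the depolymerization factor Cemip, the receptor Cd44, and the binding proteins Tnfaip6 (TSG-6) and Vcan (versican). They were chosen by name from the pathway, and each symbol was matched to 1 Ensembl identifier. RNA was sequenced from primary sternal chondrocytes of C57BL/6 mice, which were not passaged and were kept at normoxia, in 32 libraries with 2 for each of 16 conditions. Chondrocytes without floxed alleles (WT) received no virus and were untreated or were given FX11, an inhibitor of lactate dehydrogenase A, at 40 µM, the inflammatory cytokine IL-1β at 10 ng/mL, or both, for 24 h. Chondrocytes of newborn pups of 3 floxed lines, LDHA flox (written Ldha f/f), NAMPT flox (Nampt f/f) and NFKBIZ flox (Nfkbiz f/f), were infected for 24 h with an adenovirus for eGFP (GFP) or for Cre and eGFP (Cre), and then went a further 24 h with or without IL-1β at 10 ng/mL. Ldha encodes lactate dehydrogenase A, Nampt an enzyme of NAD salvage, and Nfkbiz the NF-κB cofactor IκB-ζ. Both viruses carried eGFP, all floxed libraries had virus, and no chondrocytes without floxed alleles received Cre, so the deletion and the Cre virus cannot be told apart. The labels do not say whether the 2 libraries of a condition came from separate litters or cultures, so p-values measure the spread between these libraries only.

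Hyaluronan is a long unbranched sugar chain that the 3 synthases make at the plasma membrane and push out of the cell. In cartilage it is the backbone to which aggrecan binds, held by link protein, and CD44 anchors it to the chondrocyte. The chain is broken down at the cell surface and in lysosomes, by HYAL2, which sits on the outer membrane, by HYAL1 in the lysosome, and with CEMIP, a hyaluronan-binding protein needed for another route of depolymerization. TSG-6 is secreted and moves heavy chains of inter-α-inhibitor onto hyaluronan, and versican is a large proteoglycan that binds the chain with its amino-terminal domain.

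Promoters are shown for Tnfaip6, which fell in each line after Cre virus with IL-1β, and for Hyal1 and Hyal2, which rose, as 300 bases (250 before and 50 after the start of the gene in RefSeq) from RefSeq on GRCm38.p6, where 7 of the 9 members had an entry. The Tnfaip6 window is chr2:52037863-52038162 on the plus strand, Hyal1 is chr9:107576700-107576999 on the plus strand, and Hyal2 is chr9:107568913-107569212 on the plus strand. Capitals mark the match found in the Tnfaip6 window.
Tnfaip6: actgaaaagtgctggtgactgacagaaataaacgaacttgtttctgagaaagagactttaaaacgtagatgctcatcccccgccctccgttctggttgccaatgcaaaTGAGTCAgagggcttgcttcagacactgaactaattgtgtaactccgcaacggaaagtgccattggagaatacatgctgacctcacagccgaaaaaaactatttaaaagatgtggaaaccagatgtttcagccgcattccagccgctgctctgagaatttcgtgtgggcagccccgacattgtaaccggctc
Hyal1: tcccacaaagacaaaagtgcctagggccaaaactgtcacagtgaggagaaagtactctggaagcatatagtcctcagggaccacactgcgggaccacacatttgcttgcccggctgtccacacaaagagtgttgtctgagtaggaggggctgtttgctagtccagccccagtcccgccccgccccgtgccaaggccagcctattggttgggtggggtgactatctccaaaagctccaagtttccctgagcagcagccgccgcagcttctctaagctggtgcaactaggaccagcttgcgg
Hyal2: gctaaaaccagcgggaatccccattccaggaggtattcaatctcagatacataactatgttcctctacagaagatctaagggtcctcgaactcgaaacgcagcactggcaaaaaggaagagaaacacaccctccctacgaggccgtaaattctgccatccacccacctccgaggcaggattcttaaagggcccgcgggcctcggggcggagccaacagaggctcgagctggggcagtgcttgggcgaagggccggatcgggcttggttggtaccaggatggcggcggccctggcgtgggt

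Both strands of the windows were searched for the letters of an NF-κB motif (GGG, any 3 bases, then TTCC), an AP-1 motif (TGANTCA), a C/EBP motif (TTGCNNAA) and a TATA box (TATAAA), which 5.56%, 7.79%, 10.8% and 13.6% of 32544 mouse promoter windows of the same length hold. Tnfaip6 held the AP-1 letters from -142 to -136 relative to its RefSeq start. Has1 held the C/EBP letters across its start, from -4 to 3, and Cemip a TATA box from -29 to -24. No match was found in the windows of Hyal1, Hyal2, Cd44 and Vcan, which says only that these letters are not there. Over whole genes in GENCODE on GRCm38, whose annotated starts of Tnfaip6, Hyal1 and Hyal2 lie upstream of those in RefSeq, Has1 spans chr17:17843328-17855188, Has2 chr15:56665627-56694539, Cemip chr7:83932857-84086502, Cd44 chr2:102811141-102901665 and Vcan chr13:89655312-89742509, all on the minus strand. On the plus strand Has3 spans chr8:106870242-106884566, Tnfaip6 chr2:52038009-52056686, Hyal2 chr9:107569117-107572776 and Hyal1 chr9:107576927-107581710. Hyal2 and Hyal1 lie near each other in the same direction, with 4150 bases between the annotated end of Hyal2 and the start of Hyal1.

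Library totals ran from 15830658 to 39959888 counts with a median of 25363482, and the 12 libraries of the first title series (set 1) were deeper at the median than the 20 of the second (set 2), at 36042740 against 22985557.5. WT, Ldha f/f and Nampt f/f had 1 library of a condition in each set, while all Nfkbiz f/f libraries were in set 2. The deleted genes followed the labels. Ldha was at 917 and 868 CPM (counts scaled to the library total) with GFP and 118 and 111 with Cre. Nampt was at 59.5 and 54.5 against 6.71 and 6.85, and Nfkbiz with IL-1β was at 235 and 229 against 29.4 and 32.3. Among WT libraries of set 2 the labels ran against the values, since the library labelled IL-1β had Mmp3 at 0.783 CPM, where the untreated library had 0.808, and the library labelled FX11 had Mmp3 at 2014 CPM. The 11 chondrocyte markers (Acan, Col2a1 and others) summed to 73200 to 96000 CPM in the floxed GFP libraries, against 1030 to 5940 for 7 fibroblast markers, 13.2 to 24.5 for 6 macrophage or blood markers, 3.26 to 4.55 for 4 endothelial markers, 75.3 to 104 for 5 skeletal muscle markers and 0.756 to 3.26 for 3 adipocyte markers, and no marker was at 3 counts or fewer in every library.

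All 9 members passed the filter on low values in every fit. The smallest count of a member in a library was 16, for Tnfaip6. Per length, as RPKM (reads scaled by exon length and by library total), the 6 floxed libraries with GFP and no IL-1β were highest for Cd44 at a mean of 20.8 and Hyal2 at 16.0. Has2 followed at 5.31, Vcan at 4.69, Hyal1 at 2.18, Has1 at 1.44, Tnfaip6 at 1.18, Cemip at 1.03 and Has3 at 0.601. Neighbours in this order overlapped over the 6 libraries except Hyal2, which ran from 14.9 to 16.6, and Has2, which ran from 4.10 to 6.74. Among the synthases, Has2 was thus the highest per length, above Has1, which ran from 0.807 to 2.04. The counts of 3 members can lack reads, because the paper describes counting only unambiguous reads and their exons overlap those of a neighbour. Exons of Has2 overlap its antisense gene Has2os and those of Has3 overlap Chtf8 on the other strand. Those of Hyal1 overlap Naa80 and Hyal3 on the same strand. Whether counting used the strand, which matters for Has2 and Has3, is not given in the sources used here. Reads left out would lower the RPKM of these members, so their places in the order are uncertain.

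**Figure D1:**
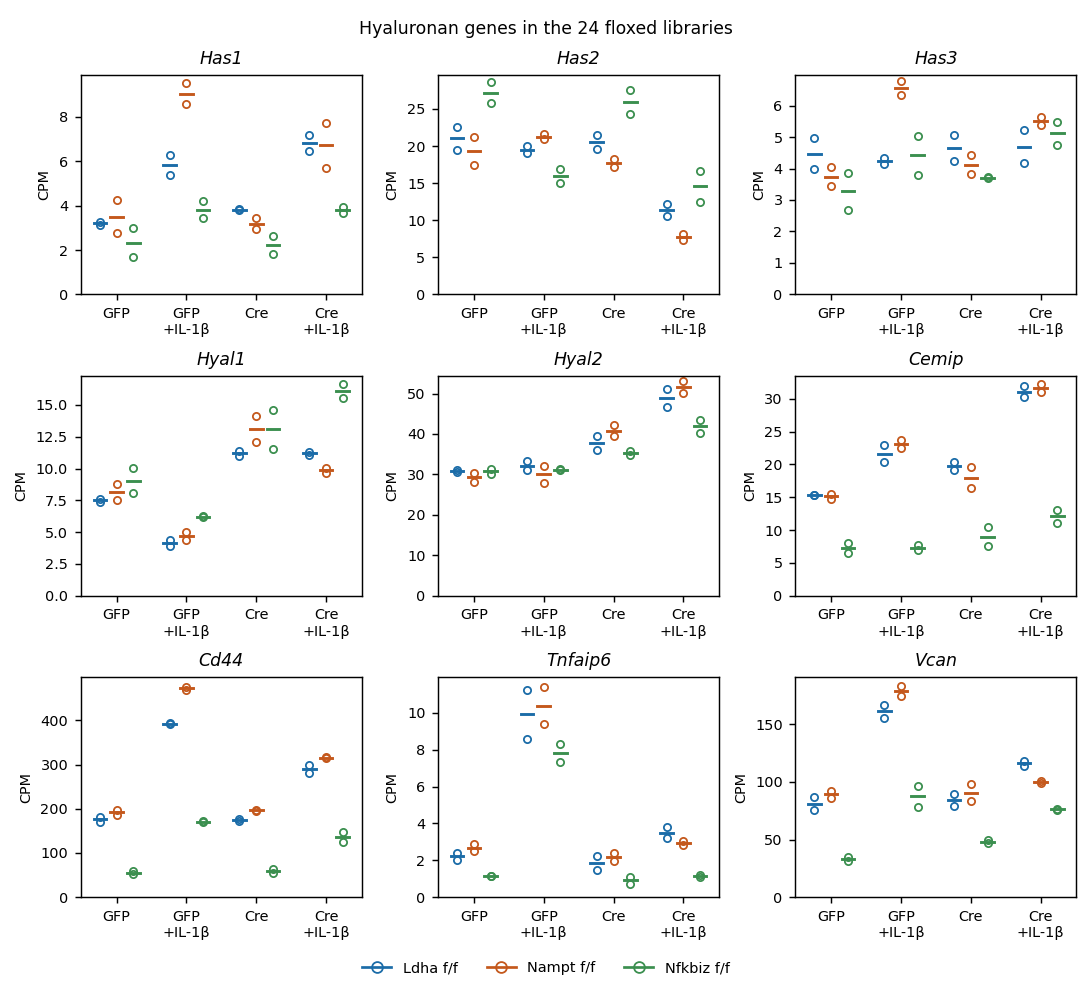
Level of each hyaluronan gene in CPM (linear axis from 0) in the 24 floxed libraries, by virus and IL-1β. Each circle is 1 library and each short bar the mean of 2. Tnfaip6 lay between 7.36 and 11.4 CPM in the 6 GFP libraries with IL-1β and at no more than 3.80 in all others, and Cd44, Cemip and Vcan had their lowest libraries in Nfkbiz f/f.

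Without IL-1β, the libraries of Nfkbiz f/f lay apart from the other lines in some members. With GFP and no IL-1β, Cd44 was at 52.3 and 58.2 CPM in Nfkbiz f/f, against 171 to 181 in Ldha f/f and 186 and 198 in Nampt f/f. Vcan was at 31.1 and 34.9 CPM in Nfkbiz f/f, against 75.4 and 86.9 in Ldha f/f and 86.1 and 92.4 in Nampt f/f. Cemip was at 6.45 and 8.09 CPM against 14.7 to 15.5 over the other lines. Has2 was higher in Nfkbiz f/f, at 25.8 and 28.6 against 17.4 to 22.6. Marker sums of these libraries also differed by line. The 7 fibroblast markers summed to 1030 to 1230 CPM in Nfkbiz f/f, 5770 to 5940 in Ldha f/f and 4920 to 5070 in Nampt f/f. The 11 chondrocyte markers summed to 84400 to 96000, 74100 to 74400 and 73200 to 74300 CPM in the same order. The part of cell make-up in the differences between lines was not tested. The lines were not tested against each other without IL-1β.

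Whether IL-1β changed the hyaluronan genes was asked over the 12 floxed libraries with GFP, 6 with and 6 without IL-1β, with line and set in the model. In this comparison 6 members rose and 1 fell, while 56.2% of the 14283 genes tested were called (28% higher and 28.3% lower, at an adjusted p of 0.05 or less). The median log2 fold change of the 9 members was 0.42, against -0.01 over all genes tested. The largest rises were those of Tnfaip6 and Cd44. Tnfaip6 ran from 1.14 to 2.86 CPM (median 2.21) without IL-1β and from 7.36 to 11.4 (median 9.00) with it. The groups did not overlap, and the log2 fold change was 2.24 ± 0.14 (SE, n = 6 against 6, adjusted p = 5.57e-10). Cd44 ran from 52.3 to 198 CPM (median 176) without and from 170 to 477 (median 393) with IL-1β, the ranges overlapping because Nfkbiz f/f with IL-1β (172 and 170) lay among the other lines without it (171 to 198), and its log2 fold change was 1.37 ± 0.06 (adjusted p = 1.53e-11). Vcan ran from 31.1 to 92.4 CPM (median 80.7) and from 78.6 to 183 (median 161), with a log2 fold change of 1.14 ± 0.07 (adjusted p = 4.82e-10). Chondrocyte markers moved in these libraries too: their sum was 27000 to 33800 CPM with IL-1β, and the 6 macrophage or blood markers summed to 30.7 to 64.6 CPM, 3 of the 4 tested being higher. Their part in the result was not tested, and in bulk RNA fewer cells of a type and less RNA per cell cannot be told apart.

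The synthases did not move as 1 group with IL-1β. Has1 ran from 1.69 to 4.25 CPM (median 3.06) without IL-1β and from 3.43 to 9.52 (median 5.85) with it, a log2 fold change of 1.03 ± 0.17 (adjusted p = 5.71e-05). Has2, at 17.4 to 28.6 CPM (median 21.9) and 15.1 to 21.6 (median 19.5), was not called, with a log2 fold change of -0.23 ± 0.12 and an adjusted p of 0.0975, which became 0.00505 when no filter on low genes was used and 0.017 (log2 fold change -0.33) without the set 2 Nampt f/f library with GFP alone. Has3 ran from 2.70 to 4.96 CPM (median 3.92) and from 3.80 to 6.78 (median 4.68), and its log2 fold change of 0.40 ± 0.16 passed narrowly (adjusted p = 0.0389). With same-numbered libraries as a block, pairs that are arbitrary in Nfkbiz f/f, Has3 had an adjusted p of 0.0615. The Has3 call was also lost without any one of the 4 Nampt f/f libraries or of the replicate 2 Nfkbiz f/f libraries, with log2 fold changes of 0.32 to 0.35 and adjusted p-values of 0.0896 to 0.12.

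Among the members that take part in breakdown, Hyal1 fell. It ran from 7.38 to 10.0 CPM (median 7.85) without IL-1β and from 3.95 to 6.25 (median 4.70) with it, so that the groups did not overlap, and the log2 fold change was -0.71 ± 0.10 (adjusted p = 1.92e-05). Hyal2 held nearly the same values in both groups, 28.1 to 31.3 CPM (median 30.5) and 28.0 to 33.3 (median 31.2), with a log2 fold change of 0.05 ± 0.05 (adjusted p = 0.405). Cemip ran from 6.45 to 15.5 CPM (median 15.1) and from 6.90 to 23.8 (median 21.4), with a log2 fold change of 0.42 ± 0.10 (adjusted p = 0.00118). The Cemip call was lost with the 8 libraries of set 2 alone (adjusted p = 0.0791) and with the 4 WT controls added (adjusted p = 0.213), of which the library labelled IL-1β in set 2 runs against its label. Has3 also lost its call in both settings (adjusted p = 0.16 and 0.148).

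Within the lines, 6 members were called in Ldha f/f (5 higher and 1 lower, with 27.9% of 15880 genes called, 14.5% higher and 13.3% lower), 7 in Nampt f/f (6 higher and 1 lower, 35% of 16136, 17.7% and 17.3%) and 5 in Nfkbiz f/f (3 higher and 2 lower, 26.8% of 15356, 15.2% and 11.7%). Tnfaip6, Cd44 and Vcan rose and Hyal1 fell in each line. Tnfaip6 rose by log2 fold changes of 2.17 ± 0.26 in Ldha f/f, 1.96 ± 0.21 in Nampt f/f and 2.78 ± 0.29 in Nfkbiz f/f. Has1 rose in Nampt f/f, from 2.76 and 4.25 to 9.52 and 8.57 CPM (log2 fold change 1.43 ± 0.24, adjusted p = 0.000913). It also rose in Ldha f/f (0.86 ± 0.18, adjusted p = 0.00618). Has1 in Nfkbiz f/f had a log2 fold change of 0.73 ± 0.32 and was not called by edgeR on the 8 libraries of the line (adjusted p = 0.114), but was by voomWithQualityWeights (0.77, adjusted p = 0.0451) and with all 24 floxed libraries sharing the spread (0.72, adjusted p = 0.0351). Cemip rose in Ldha f/f and Nampt f/f (0.49 ± 0.09 and 0.64 ± 0.11). In Nfkbiz f/f it was at 8.09 and 6.45 CPM without and 7.76 and 6.90 CPM with IL-1β. Has3 was called in Nampt f/f alone, from 3.45 and 4.04 to 6.32 and 6.78 CPM (log2 fold change 0.84 ± 0.19, adjusted p = 0.00566), and not without the set 1 GFP library (0.71, adjusted p = 0.0522). Hyal1 in Nfkbiz f/f passed narrowly (-0.53 ± 0.18, adjusted p = 0.0458) and not when either library with IL-1β or the replicate 2 library without it was left out (-0.52, -0.53 and -0.36, adjusted p-values of 0.166 to 0.283). DESeq2 did not call Hyal1 there either (-0.525, adjusted p = 0.0598).

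The response to IL-1β was also compared between lines, and Has2 and Cd44 each passed in 1 pair. With GFP in Nfkbiz f/f it fell from 25.8 and 28.6 CPM to 16.9 and 15.1 with IL-1β, 2 libraries each that did not overlap (log2 fold change -0.75 ± 0.15, adjusted p = 0.0024). In Nampt f/f it was at 21.2 and 17.4 CPM without and 20.9 and 21.6 with IL-1β (0.15 ± 0.12, adjusted p = 0.355). Ldha f/f had 19.4 and 22.6 against 19.0 and 20.0 (-0.11 ± 0.12, adjusted p = 0.544). Over the 24 floxed libraries the response in Nfkbiz f/f minus that in Nampt f/f was -0.92 ± 0.18 on the log2 scale (adjusted p = 0.00383). In that comparison Has2 was the only member called by edgeR with the filter (no filter called 3 and voomWithQualityWeights 4), and 4.01% of 16727 genes were (2.67% higher and 1.33% lower). Against Ldha f/f the difference was -0.65 ± 0.18 with edgeR (adjusted p = 0.059), but DESeq2 (adjusted p = 0.0353), voomWithQualityWeights (0.0145) and edgeR without the filter (0.0181) called Has2. These 3 settings also called Vcan (0.43, 0.41 and 0.42, adjusted p = 0.04, 0.0395 and 0.046), which edgeR with the filter did not (0.42 ± 0.12, adjusted p = 0.074). By edgeR with the filter Cd44 was the only member called, with a response 0.47 ± 0.11 larger in Nfkbiz f/f (adjusted p = 0.0214, with 2.42% of genes called, 1.74% higher and 0.676% lower). The Cd44 difference did not pass when any one of 6 of the 8 libraries it compares was left out (0.40 to 0.48, adjusted p up to 0.143). The replicate 2 GFP libraries without IL-1β of both lines were the exceptions. Both differences between lines were added after the data had been seen. All Nfkbiz f/f libraries are from set 2, where the other lines had 1 library per condition. The fit used the libraries of both sets, with the set as a covariate.

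**Figure D2:**
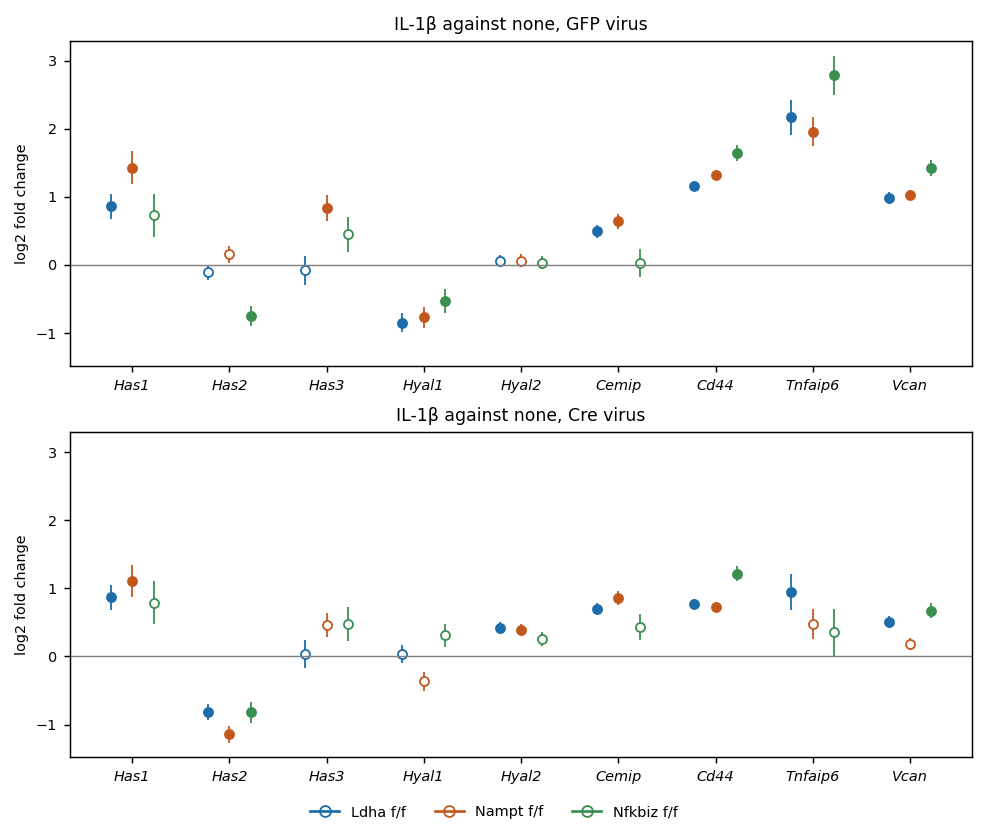
Log2 fold change with IL-1β (y axis) of the 9 hyaluronan genes in the 3 floxed lines after GFP virus (top) and after Cre virus (bottom); bars are the SE of the fit and filled points have an adjusted p of 0.05 or less. Tnfaip6 lay between 1.96 and 2.78 after GFP and between 0.35 and 0.95 after Cre, and Has2 lay below 0 in all lines after Cre.

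Whether losing Ldha, Nampt or Nfkbiz changed the genes at rest was asked of Cre against GFP without IL-1β. Few members were called. In Ldha f/f 1 member was higher, with 5.52% of genes called (3.43% higher and 2.09% lower), in Nampt f/f 2 were higher, with 14.4% called (8.3% and 6.07%), and in Nfkbiz f/f none was called, with 0.26% called (0.111% and 0.15%). Hyal1 rose in Ldha f/f from 7.62 and 7.38 to 11.4 and 11.0 CPM (log2 fold change 0.56 ± 0.13, adjusted p = 0.0389). It also rose in Nampt f/f, from 7.55 and 8.77 to 14.2 and 12.1 (0.69 ± 0.14, adjusted p = 0.00894). Nfkbiz f/f libraries held Hyal1 at 8.09 and 10.0 CPM with GFP and 14.6 and 11.5 with Cre (0.52 ± 0.17, adjusted p = 0.454). Hyal2 rose in Nampt f/f from 28.1 and 30.5 to 39.5 and 42.1 CPM (0.47 ± 0.09, adjusted p = 0.00556). In Ldha f/f it was at 31.0 and 30.6 against 36.0 and 39.4. Neither Hyal2 (0.27 ± 0.09, adjusted p = 0.136) nor Cemip (0.34 ± 0.09, adjusted p = 0.0724) was called there. With the set as a block both were (adjusted p = 0.0329 and 0.0253), so that 3 members were called. Hyal2 in Nfkbiz f/f was not called either (0.18 ± 0.10, adjusted p = 0.929). In all 3 lines the 2 libraries with Cre lay above the 2 with GFP for Hyal1 and Hyal2. How many of all genes separated in this way was not counted, so the separation adds nothing to the tests.

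Each of these calls at rest was lost when certain libraries were left out. The Hyal1 call in Ldha f/f was lost without any one of 7 of the 8 libraries of the line, all but the set 1 library with GFP and IL-1β, at log2 fold changes of 0.54 to 0.58 and adjusted p-values of 0.0542 to 0.196. In Nampt f/f the Hyal1 call was lost without the set 1 GFP (0.57, adjusted p = 0.0886) or the set 1 Cre library (0.57, adjusted p = 0.0861), and the Hyal2 call without the set 1 GFP library (0.41, adjusted p = 0.0563). Of the 9 members in Nfkbiz f/f, 2 had an unadjusted p of 0.05 or less. One was Vcan, at 34.9 and 31.1 CPM with GFP and 49.6 and 46.6 with Cre (0.53 ± 0.12, adjusted p = 0.138), which DESeq2 called (adjusted p = 0.0354, 1 member) and limma's voomWithQualityWeights did not. Vcan was also called by edgeR without the filter (adjusted p = 0.00616) and with all 24 floxed libraries (adjusted p = 0.00132). The 11 chondrocyte markers summed to 51000 to 87500 CPM after Cre without IL-1β, and 9 of them were lower in Ldha f/f, 11 in Nampt f/f and 0 in Nfkbiz f/f. The 4 endothelial markers summed to 2.39 to 14.0 CPM. Their part was not tested.

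With IL-1β present, Cre against GFP moved 7 members in Ldha f/f (3 higher and 4 lower, where 34% of all genes were called, 16.9% higher and 17% lower), 7 in Nampt f/f (3 higher and 4 lower, 48.4%, 25% and 23.4%) and 4 in Nfkbiz f/f (3 higher and 1 lower, 17.4%, 8.16% and 9.2%). The GFP libraries with IL-1β are the same libraries that stood on the IL-1β side above, so the 2 kinds of comparison are not independent. Hyal1, Hyal2 and Cemip, the members that take part in breakdown, rose and Tnfaip6 fell in each line. The median log2 fold change of the members was 0.17, -0.42 and -0.01 in the lines in that order, against -0.02, -0.03 and -0.01 over all genes tested.

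Hyal1 rose from 4.36 and 3.95 to 11.1 and 11.3 CPM in Ldha f/f (log2 fold change 1.448 ± 0.14, adjusted p = 3.51e-05). The same gene went from 4.40 and 4.99 to 10.1 and 9.66 in Nampt f/f (1.10 ± 0.16, adjusted p = 0.000192). Nfkbiz f/f had 6.21 and 6.25 with GFP against 16.7 and 15.5 with Cre (1.35 ± 0.17, adjusted p = 0.000173). With Cre and IL-1β it thus stood above its level in the GFP libraries of the same line without IL-1β. Hyal2 rose from 31.0 and 33.3 to 46.7 and 51.2 CPM in Ldha f/f (0.63 ± 0.09, adjusted p = 0.000517). The rise in Nampt f/f was from 28.0 and 32.1 to 50.04 and 53.1 (0.80 ± 0.09, adjusted p = 3.74e-05). That in Nfkbiz f/f was smaller, from 31.4 and 31.0 to 40.2 and 43.5 (0.41 ± 0.10, adjusted p = 0.013). Hyal2 had not been called for IL-1β in any line with GFP. Cemip rose from 22.9 and 20.3 to 32.0 and 30.2 CPM in Ldha f/f (0.55 ± 0.09, adjusted p = 0.00134). Its rise in Nampt f/f was from 23.8 and 22.4 to 32.2 and 31.0 (0.47 ± 0.10, adjusted p = 0.00325). Lower levels were seen in Nfkbiz f/f, 7.76 and 6.90 with GFP and 13.0 and 11.2 with Cre (0.71 ± 0.20, adjusted p = 0.0263). The 3 genes lay above GFP in all 6 Cre libraries of their own lines. The share of all genes that separated in this way was not counted, so the separation adds nothing to the tests. In Nfkbiz f/f the Hyal2 call was lost without either GFP library with IL-1β (0.42 and 0.39, adjusted p = 0.0927 and 0.11). The Cemip call there was lost without either of these (0.79 and 0.62, adjusted p = 0.0914 and 0.181) or without the replicate 1 Cre library with IL-1β (0.59, adjusted p = 0.0842).

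Tnfaip6 fell in each line after Cre. It went from 8.60 and 11.3 to 3.80 and 3.21 CPM in Ldha f/f (log2 fold change -1.47 ± 0.25, adjusted p = 0.00142). Nampt f/f had 9.40 and 11.4 with GFP and 3.02 and 2.83 with Cre (-1.80 ± 0.21, adjusted p = 3.65e-05). Nfkbiz f/f had 7.36 and 8.34 with GFP and 1.12 and 1.22 with Cre (-2.76 ± 0.29, adjusted p = 3.05e-05). There the Cre libraries with IL-1β were at the level of the GFP libraries without it, which held 1.16 and 1.14 CPM. Has2 fell in Ldha f/f from 19.0 and 20.0 to 12.2 and 10.5 CPM (-0.75 ± 0.12, adjusted p = 0.00107). Has2 also fell in Nampt f/f, from 20.9 and 21.6 to 8.10 and 7.33 (-1.44 ± 0.13, adjusted p = 4.71e-06). Its Nfkbiz f/f values were 16.9 and 15.1 with GFP and 16.7 and 12.5 with Cre, which overlap (-0.15 ± 0.15, adjusted p = 0.568).

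Cd44 fell from 392 and 394 to 281 and 299 CPM in Ldha f/f (-0.42 ± 0.07, adjusted p = 0.00135). Its fall in Nampt f/f was from 477 and 469 to 316 and 317 (-0.56 ± 0.06, adjusted p = 1.09e-05). Nfkbiz f/f had Cd44 at 172 and 170 with GFP and 148 and 125 with Cre (-0.34 ± 0.11), which just missed the threshold (adjusted p = 0.0534). It passed with voomWithQualityWeights (0.0425), without the filter (0.0273) and with all 24 floxed libraries sharing the spread (0.00341). It also passed without the replicate 1 library with Cre and IL-1β (-0.47, 0.0089) or either library with Cre alone (-0.34 and -0.33, 0.0476 and 0.0485). Vcan fell from 167 and 156 to 114 and 118 CPM in Ldha f/f (-0.45 ± 0.09, adjusted p = 0.00315). The fall in Nampt f/f was from 183 and 175 to 101 and 99.3 (-0.82 ± 0.08, adjusted p = 8.63e-06). In Nfkbiz f/f Vcan was at 96.4 and 78.6 against 76.9 and 75.4 (-0.22 ± 0.11, adjusted p = 0.214). Has1 and Has3 were not called by edgeR without a block in any line. Has1 in Nampt f/f was at 9.52 and 8.57 CPM with GFP and 5.72 and 7.75 with Cre (-0.42 ± 0.23, adjusted p = 0.147), and passed with the set as a block (-0.44, adjusted p = 0.0443) and with voomWithQualityWeights (-0.48, adjusted p = 0.0488).

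**Figure D3:**
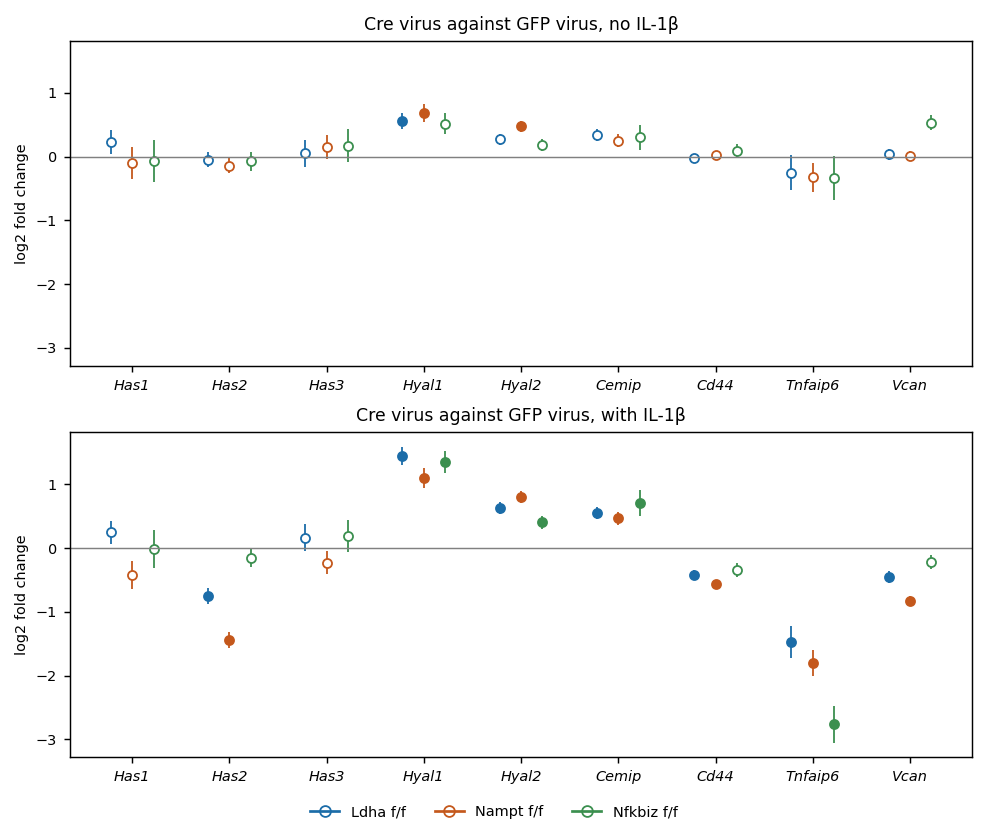
Log2 fold change of Cre against GFP virus (y axis) for the 9 hyaluronan genes in each floxed line, without IL-1β (top) and with it (bottom); bars are the SE of the fit and filled points have an adjusted p of 0.05 or less. With IL-1β, Hyal1, Hyal2 and Cemip lay above 0 and Tnfaip6 below 0 in the 3 lines, while Has2 was at -0.75 in Ldha f/f, -1.44 in Nampt f/f and -0.15 in Nfkbiz f/f.

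Cell type markers moved with these results. After Cre with IL-1β the 11 chondrocyte markers summed to 14200 to 15600 CPM in Ldha f/f and Nampt f/f, against 27000 to 27900 with GFP and IL-1β, and 10 and 9 of them were lower. In Nfkbiz f/f the sum was 37600 to 40200 against 31400 to 33800, with 1 higher and 1 lower. The 7 fibroblast markers summed to 2400 to 2840 CPM in Ldha f/f and Nampt f/f, against 3820 to 4560 with GFP and IL-1β. In Nfkbiz f/f they summed to 835 to 932 against 780 to 811. Of them, 6 were lower in Ldha f/f, 6 in Nampt f/f and 1 in Nfkbiz f/f. The 4 endothelial markers summed to 6.69 to 26.2 CPM against 3.26 to 7.36, and the 6 macrophage or blood markers to 21.1 to 58.6 against 30.7 to 64.6. Skeletal muscle markers summed to 18.6 to 39.9 CPM against 11.2 to 45.0 and adipocyte markers to 0.561 to 9.12 against 0.308 to 1.97. The part of these markers in the changes of the members was not tested.

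Tests of the difference between lines, in 1 fit of the 24 floxed libraries with the set as a covariate, asked whether Cre under IL-1β acted differently. Nfkbiz f/f differed from Ldha f/f in 2 members, 1 in each direction (27% of 16727 genes called, 14% higher and 13% lower), and from Nampt f/f in 4, 2 in each direction (36.3%, 18.6% and 17.6%). Has2 fell less in Nfkbiz f/f, by 1.34 ± 0.19 on the log2 scale against Nampt f/f (adjusted p = 7.76e-06) and by 0.64 ± 0.19 against Ldha f/f (adjusted p = 0.0141). Tnfaip6 fell further in Nfkbiz f/f, with differences of -1.27 ± 0.34 against Ldha f/f (adjusted p = 0.00676) and -0.92 ± 0.34 against Nampt f/f (adjusted p = 0.0376), but voomWithQualityWeights called neither (adjusted p = 0.0541 and 0.157). Against Nampt f/f, Vcan fell less in Nfkbiz f/f (0.65 ± 0.12, adjusted p = 0.000148) and Hyal2 rose less (-0.35 ± 0.11, adjusted p = 0.0134). For Hyal1 the differences were -0.06 ± 0.21 against Ldha f/f (adjusted p = 0.883) and 0.30 ± 0.22 against Nampt f/f (adjusted p = 0.301). Between Nampt f/f and Ldha f/f, compared after the data had been seen, edgeR called 0 members and 0.538% of all genes (0.311% higher and 0.227% lower). There 3 members had an unadjusted p of 0.05 or less, DESeq2 called 0, and voomWithQualityWeights called 2, Has2 (-0.71, adjusted p = 0.0217) and Vcan (-0.38, adjusted p = 0.0232), both lower in Nampt f/f.

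Some of these differences lost their call when a library was left out, while the estimates kept their direction. The Has2 difference from Ldha f/f was lost without the replicate 1 Nfkbiz f/f library with Cre and IL-1β (0.42, adjusted p = 0.101), the replicate 2 Nfkbiz f/f library with GFP and IL-1β (0.56, adjusted p = 0.0676), or either set 2 Ldha f/f library with IL-1β (0.57 for GFP and 0.56 for Cre, adjusted p = 0.0581 and 0.0646). The Tnfaip6 difference from Nampt f/f was lost without any one of 6 libraries with IL-1β. These were those of Nampt f/f with GFP in set 1 (-0.78, adjusted p = 0.134) and with Cre in either set (-0.86 and -1.0, 0.11 and 0.0505), and also those of Nfkbiz f/f with GFP in replicate 2 (-0.82, 0.107) and with Cre in either replicate (-0.85 and -0.99, 0.106 and 0.0617). The Hyal2 difference was lost without the set 1 Nampt f/f library with GFP and IL-1β (-0.29, adjusted p = 0.0779).

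Whether the response to IL-1β itself changed with Cre was tested as an interaction within each line. In Ldha f/f 4 members were called (1 higher and 3 lower, with 11.5% of genes called, 5.89% higher and 5.6% lower), in Nampt f/f 4 (all lower, 22%, 12% and 9.98%) and in Nfkbiz f/f 2 (both lower, 5.19%, 1.69% and 3.5%). Vcan was called in each line, its response being smaller after Cre. For Ldha f/f its interaction was -0.49 ± 0.13 (adjusted p = 0.034), for Nampt f/f -0.84 ± 0.11 (adjusted p = 0.000402) and for Nfkbiz f/f -0.75 ± 0.16 (adjusted p = 0.0164). The parts of the Vcan interaction differed by line. Cre against GFP was 0.03 without and -0.45 with IL-1β in Ldha f/f, and 0.02 and -0.82 in Nampt f/f. In Nfkbiz f/f it was 0.53 without and -0.22 with IL-1β, neither called by edgeR with the filter. For Tnfaip6 the interaction was -1.48 ± 0.30 in Nampt f/f (adjusted p = 0.00561) and -2.43 ± 0.46 in Nfkbiz f/f (adjusted p = 0.00759). In Ldha f/f its interaction was -1.22 ± 0.37 (adjusted p = 0.0648), and passed with the set as a block (-1.22, adjusted p = 0.0207). Has2 had an interaction of -0.70 ± 0.17 in Ldha f/f (adjusted p = 0.0256). Its interaction was -1.30 ± 0.17 in Nampt f/f (adjusted p = 0.000437) and -0.07 ± 0.21 in Nfkbiz f/f (adjusted p = 0.912). Cd44 was called in Ldha f/f (-0.39 ± 0.10, adjusted p = 0.0327) and Nampt f/f (-0.59 ± 0.08, adjusted p = 0.000429). In Nfkbiz f/f Cd44 was not called (-0.42 ± 0.16, adjusted p = 0.173), but was with all 24 floxed libraries (adjusted p = 0.0174). Hyal1 was called in Ldha f/f (0.89 ± 0.19, adjusted p = 0.015) and not in Nampt f/f (0.41 ± 0.21, adjusted p = 0.21). Its Nfkbiz f/f interaction was of like size to that in Ldha f/f (0.84 ± 0.24, adjusted p = 0.0735). It passed without the filter (adjusted p = 0.0237) and with all 24 floxed libraries (adjusted p = 0.00818). With the set as a block Hyal2 was also called in Ldha f/f (0.36, adjusted p = 0.0271) and Nampt f/f (0.33, adjusted p = 0.011).

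Several of these interactions lost their call when a library was left out, while the estimates kept their direction. In Ldha f/f the interactions of Cd44 and Vcan were each lost without any one of 6 of the 8 libraries. For Cd44 these were all but the set 1 GFP library and the set 2 library with Cre and IL-1β (-0.45 to -0.35, adjusted p up to 0.123). For Vcan they were all but the set 1 GFP and the set 2 Cre library (-0.54 to -0.39, adjusted p up to 0.138). Has2 lost its call there without the set 1 GFP, the set 1 Cre, or either set 2 library with IL-1β (-0.66 to -0.59, adjusted p of 0.0744 to 0.0981). Hyal1 lost it without the set 2 library with GFP and IL-1β or any of the 4 Cre libraries (0.84 to 0.91, adjusted p of 0.0503 to 0.0587). The Tnfaip6 interaction in Ldha f/f passed without the set 2 Cre library (-1.47, adjusted p = 0.0456). In Nfkbiz f/f that of Tnfaip6 was lost without the replicate 1 Cre library (-2.11, adjusted p = 0.0524) or the replicate 2 library with GFP and IL-1β (-2.34, adjusted p = 0.0522). Vcan lost its call in Nfkbiz f/f without the replicate 1 library with GFP and IL-1β (-0.60, adjusted p = 0.111), the replicate 1 Cre library (-0.70, adjusted p = 0.0538) or the replicate 2 GFP library (-0.66, adjusted p = 0.102). The 4 interactions called in Nampt f/f were called without any one of its libraries.

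After Cre virus, a comparison added after the data had been seen, IL-1β lowered Has2 in each line. It fell from 21.4 and 19.7 to 12.2 and 10.5 CPM in Ldha f/f (-0.81 ± 0.12, adjusted p = 0.000592). Its change in Nampt f/f was from 18.2 and 17.1 to 8.10 and 7.33 (-1.14 ± 0.12, adjusted p = 2.72e-05), and that in Nfkbiz f/f was from 24.3 and 27.6 to 16.7 and 12.5 (-0.82 ± 0.15, adjusted p = 0.00231). Cd44 still rose in each line, by 0.77 ± 0.07, 0.73 ± 0.06 and 1.22 ± 0.11. Tnfaip6 rose by 0.95 ± 0.27 in Ldha f/f (adjusted p = 0.0208), a call lost without the set 2 Cre library (0.70, adjusted p = 0.121) or the set 1 Cre library with IL-1β (0.80, adjusted p = 0.122). In Nampt f/f it was 0.48 ± 0.22 (adjusted p = 0.102) and in Nfkbiz f/f 0.36 ± 0.34 (adjusted p = 0.491). In all, 7 members were called in Ldha f/f (6 higher and 1 lower, with 35.9% of genes called, 19.5% higher and 16.3% lower), 5 in Nampt f/f (4 higher and 1 lower, 43.9%, 24.3% and 19.6%) and 3 in Nfkbiz f/f (2 higher and 1 lower, 22.1%, 11.7% and 10.3%). Hyal2 rose in Ldha f/f (0.41 ± 0.09) and Nampt f/f (0.39 ± 0.09), the former not without the set 1 Cre library (0.34, adjusted p = 0.0562) or the set 2 Cre library with IL-1β (0.33, adjusted p = 0.0574). Cemip and Has1 also rose in Ldha f/f and Nampt f/f, and Vcan in Ldha f/f and Nfkbiz f/f. With the set as a block 8 members were called in Nampt f/f, with Has3 (0.46, adjusted p = 0.0394), Vcan (0.19, adjusted p = 0.00198) and Hyal1 (-0.37, adjusted p = 0.021) added.

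WT chondrocytes were used to ask whether FX11 and IL-1β moved the same genes without virus. There edgeR called 0 of 15461 genes in each of 4 comparisons. The number at an unadjusted p of 0.05 or less was 153 for IL-1β, 68 for FX11, 860 for both against untreated and 102 for both against IL-1β, with 0 members among them. DESeq2 called 6, 2, 144 and 1 genes and voomWithQualityWeights 0 in each, with 0 members in all. The sets ran apart. In set 1 Cd44 was at 115 CPM untreated, 123 with FX11, 431 with IL-1β and 413 with both. In set 2 it was at 63.7 untreated, 279 in the library labelled FX11, 61.2 in the library labelled IL-1β and 292 with both. Has2 in set 1 was at 32.1, 29.8, 39.6 and 22.4 CPM in the same order, and in set 2 at 25.2, 29.3, 21.0 and 13.7, so that the lowest library of each set was the one with both agents. Against untreated, both agents gave Has2 a log2 fold change of -0.66 ± 0.37 (adjusted p = 0.91) without overlap of the 2 libraries each. Tnfaip6 in set 1 was at 1.86, 1.5, 5.13 and 2.42 CPM and in set 2 at 1.65, 4.26, 0.746 and 2.502. Vcan in set 1 was at 141, 136, 316 and 223 CPM and in set 2 at 77.2, 177, 58.0 and 96.2. Leaving out the 2 libraries of set 2 labelled IL-1β and FX11, a step chosen after the data had been seen, left 1 library in each of these groups. Calls of that fit are therefore not set against those above.

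**Figure D4:**
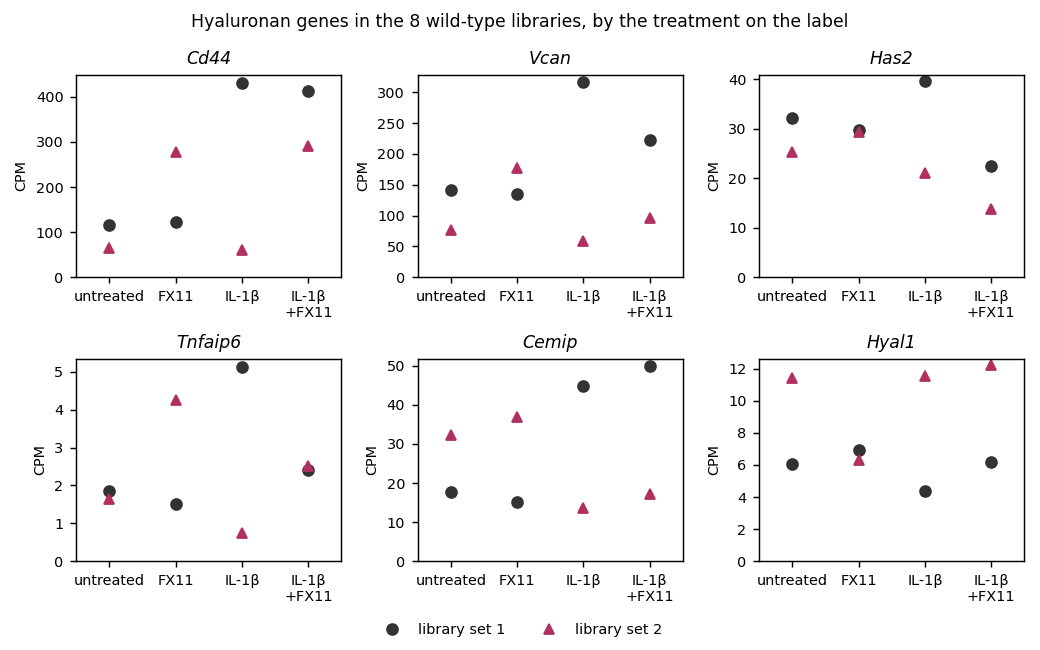
Level of 6 hyaluronan genes in CPM (linear axis from 0) in the 8 WT libraries by the treatment on the label, circles for set 1 and triangles for set 2. In set 2 Cd44 was at 279 CPM in the library labelled FX11 and 61.2 in the library labelled IL-1β, the opposite order to set 1, where these were 123 and 431.

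Other genes of hyaluronan biology were read from a list of 40, of which 29 passed the filter in the IL-1β comparison with 11 higher and 10 lower (median log2 fold change 0.01), beside 28% and 28.3% of all genes. Of 8 genes that supply the sugar precursors, 3 rose (Ugdh 0.44, Uap1 0.70 and Hk2 0.67 on the log2 scale) and 4 fell (Gfpt1 -0.76, Pgm3 -0.51, Gnpnat1 -0.36 and Gfpt2 -0.17). Of 6 receptors tested, 4 rose, Tlr2 by 2.45, Layn by 1.27, Tlr4 by 1.24 and Stab1 by 1.18. Among 10 matrix partners Ptx3, which takes part with TSG-6 in cross-linking hyaluronan, rose by 1.66, Itih5 by 0.92 and Itih2 by 0.49, and Acan, Hapln1 (-1.42), Bcan (-1.35) and Habp4 (-0.70) were lower. The cell-surface hyaluronidase Cemip2 rose by 0.66, and Hexa (-0.22) and Has2os (-1.06) were lower. Acan and Hapln1 are also among the 11 chondrocyte markers.

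With IL-1β, Cre against GFP called 14 of 30 such genes in Ldha f/f (1 higher and 13 lower), beside 34% of all genes (16.9% higher and 17% lower). In Nampt f/f 21 of 29 were called (4 higher and 17 lower), beside 48.4% (25% and 23.4%), and in Nfkbiz f/f 13 of 30 (2 higher and 11 lower), beside 17.4% (8.16% and 9.2%). Of the other hyaluronidases and genes of chain breakdown, 0 of 5 tested were called in Ldha f/f. For Nampt f/f 2 of 4 were higher and 0 lower. Ptx3 fell in each line, from 429 to 114 CPM (-1.89), from 339 to 93.6 (-1.84) and from 724 to 278 (-1.40) on average. Tlr4 (-1.36, -2.14 and -1.03), Tlr2 (-0.70, -0.77 and -1.18), Itih2 (-1.04, -1.62 and -0.64), Ugp2 (-0.995, -1.14 and -0.72) and Uap1 (-0.47, -0.48 and -0.55) also fell in each line. Hapln1, the link protein that holds aggrecan on hyaluronan, went from 272 and 250 to 28.5 and 31.4 CPM in Ldha f/f (-3.10, adjusted p = 2.12e-08). Its fall in Nampt f/f was from 254 and 255 to 27.1 and 24.5 (-3.28, adjusted p = 2.97e-10). In Nfkbiz f/f Hapln1 was at 460 and 423 against 456 and 288 (-0.26, adjusted p = 0.324). Itih5 rose in Ldha f/f (1.37) and Nampt f/f (1.01) and fell in Nfkbiz f/f (-1.33, adjusted p = 0.0202).

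**Figure D5:**
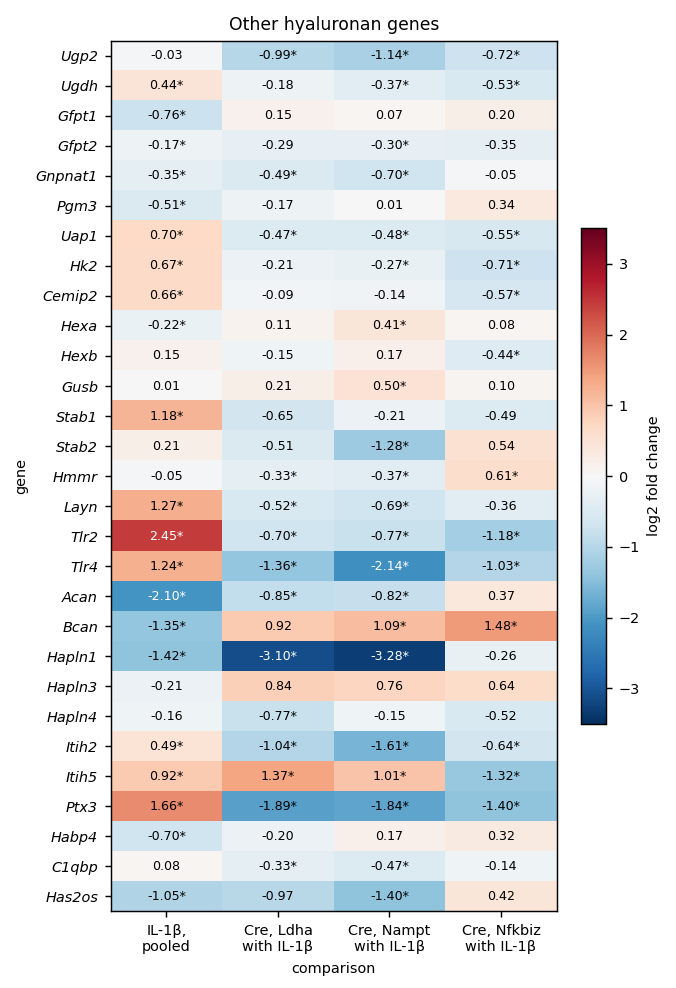
Log2 fold changes of the 29 other hyaluronan genes that passed the filter in 4 comparisons: IL-1β over the GFP libraries, and Cre against GFP with IL-1β in each line (rows, genes; columns, comparisons; red higher, blue lower; a star marks an adjusted p of 0.05 or less). Ptx3, Tlr2 and Tlr4 were higher with IL-1β and lower after Cre in the 3 lines, and Hapln1 was at -3.10, -3.28 and -0.26 after Cre.

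Across the 24 floxed libraries, which share lines, sets and treatments, the genes most like each member in log2 CPM were listed as a description among 16727 genes. Tnfaip6 was most like Abcc1 (Pearson r = 0.963), Fgf7 (0.963) and the IL-1 receptor gene Il1r1 (0.962). Cd44 was most like Heg1 (0.98), Vcan like Ccne2 (0.975) and Pdgfra (0.974), Hyal2 like Gnai2 (0.964), Cemip like Asf1b (0.959), Hyal1 like Dzip1 (0.953), Has1 like Atp13a3 (0.936) and Has2 like Gpcpd1 (0.935). Has3, the lowest member per length, reached 0.787 at most. Between members the highest value was for Cd44 and Vcan (0.963) and the lowest for Hyal1 and Tnfaip6 (-0.835).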

How the data were processed

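RNA from 32 libraries was depleted of ribosomal RNA and sequenced on an Illumina HiSeq. The authors aligned reads with STAR (2.0.4b in the submitters' processing notes) to Ensembl GRCm38, and deposited, per gene and library, raw counts of uniquely aligned reads from featureCounts (1.45 in the notes), with CPM and RPKM made from them. Counts were tested, after removal of 355 ribosomal RNA genes, with the quasi-likelihood test of edgeR 4.0.16 (R 4.3.3, TMM scaling); genes needed over 1 CPM in 5 libraries (pooled) or 1 library (within lines, WT and all floxed lines). P-values were adjusted over all genes tested by Benjamini and Hochberg and called at 0.05. CPM and RPKM printed for genes use TMM-scaled totals, and the totals set their precision. Symbols came from GENCODE M21, which named 40340 of 41388 genes. The members and lists were chosen with earlier results of these data known. Named genes were the 9 members, the listed hyaluronan genes with a call, and the genes most like each member. Correlations used log2(CPM + 0.5). Samples were grouped by their labels. Same-numbered libraries of Ldha f/f and Nampt f/f come from 1 set of titles and deviated together (correlations of deviations from group means of 0.251 to 0.453). Those of WT also did (0.267 to 0.705), except between the FX11 and IL-1β conditions (-0.151). Those of Nfkbiz f/f did not (-0.169 to 0.071). The tests reported within lines had no block, and the value with the set as a block is given where it changes a call. Replicates differed by more than sampling noise in each condition (chi-square per degree of freedom 8.45 or more). The test recovered known changes in simulated counts. These had the same dispersion for all genes and no set effect, unlike the data, and no planted log2 change was smaller than 1. Alternatives were DESeq2 1.42.0, limma 3.58.1 voomWithQualityWeights, RLE scaling, no filter, the set as a block, other libraries in the fit, and each library left out.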

Additional observations from a re-analysis of the deposited data

Results flagged for a closer look

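Differences of effects between viruses or lines that passed the test are collected here as values on the log2 scale; groups of 2 libraries allow no test for single libraries that stand apart. The change with Cre virus in the response to IL-1β in Ldha f/f was -0.39 for Cd44, 0.889 for Hyal1, -0.485 for Vcan and -0.702 for Has2. In Nampt f/f it was -1.478 for Tnfaip6, -0.589 for Cd44, -0.838 for Vcan and -1.296 for Has2, and in Nfkbiz f/f -2.429 for Tnfaip6 and -0.75 for Vcan. The effect of Cre under IL-1β in Nfkbiz f/f minus that in Ldha f/f was -1.271 for Tnfaip6 and 0.638 for Has2. Minus that in Nampt f/f it was -0.92 for Tnfaip6, -0.347 for Hyal2, 0.651 for Vcan and 1.337 for Has2. The response to IL-1β with GFP in Nfkbiz f/f was larger than in Ldha f/f by 0.474 for Cd44, and its difference from Nampt f/f was -0.917 for Has2.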

How the results depend on the processing

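Of 79 calls of a member in a comparison, DESeq2 kept 77, voomWithQualityWeights 77, RLE scaling 79, no filter 78, the set or replicate number as a block 56 of 57, and a fit of all 24 floxed libraries 64 of 64; 0 turned direction in these or with a library left out. RLE scaling moved the median of all genes by -0.028 to 0.01. Counts of members called moved by over 1.5 times for Cre without IL-1β in Ldha f/f, from 1 to 0 with DESeq2, 0 with no filter, 3 with the replicate block and 2 with 24 floxed libraries, and in Nfkbiz f/f from 0 to 1 with DESeq2, with no filter and with 24 floxed libraries. After Cre, IL-1β called 8 members instead of 5 with the replicate block in Nampt f/f, and 6 instead of 3 with 24 floxed libraries in Nfkbiz f/f, where the interaction gave 4 instead of 2. For Cre under IL-1β, voomWithQualityWeights gave 1 instead of 2 for Nfkbiz f/f minus Ldha f/f and 2 instead of 0 for Nampt f/f minus Ldha f/f. For the response to IL-1β with GFP, Nfkbiz f/f minus Ldha f/f gave 3 instead of 1 with DESeq2, voomWithQualityWeights or no filter, and Nfkbiz f/f minus Nampt f/f gave 4 with voomWithQualityWeights and 3 with no filter instead of 1. The cause of these moves was not tested. The block changed no call beyond those given in the report, and in Nfkbiz f/f the numbers do not pair the libraries.

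With 1 library left out, 20 of the 79 calls were lost at least once. IL-1β called 6 to 7 members pooled, 6 to 6 in Ldha f/f, 6 to 7 in Nampt f/f and 4 to 5 in Nfkbiz f/f. Cre without IL-1β called 0 to 1, 0 to 2 and 0 to 0 in that order, Cre with IL-1β 7 to 7, 7 to 7 and 2 to 5, IL-1β after Cre 6 to 7, 5 to 6 and 3 to 4, and the interaction 0 to 3, 4 to 4 and 0 to 3. The effect of Cre under IL-1β differed in 1 to 3 members for Nfkbiz f/f minus Ldha f/f, 2 to 5 for Nfkbiz f/f minus Nampt f/f and 0 to 1 for Nampt f/f minus Ldha f/f, the response to IL-1β in 0 to 3 and 1 to 2 for the first 2 pairs, and WT gave 0 to 0. Counts as low as 16 limit Tnfaip6.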
